A study of Mus musculus with 24 samples.

Results

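The mitochondrial respiratory chain was described in the kidneys of hypertensive and normotensive mice through 88 genes, out of 18782 genes to which at least 1 probe set was assigned alone. They are all genes whose symbol starts with Nduf, Uqcr, Atp5 or Cox4 to Cox8, or is Sdha, Sdhb, Sdhc or Sdhd, and each was represented by its probe set with the highest mean. The rule took 120 probe sets, and 9 further probe sets that carried such a symbol together with another were left out, so that Cox7c, Uqcrc2 and Ndufa13 are not among the members. Subunits encoded in mitochondrial DNA were not analysed here. Total RNA from kidneys was hybridised to Affymetrix Mouse Gene arrays, 1 array for each of 24 mice, and all levels below are log2 values after RMA, the summary of probe signals the study used. The groups were BPH/2J males, BPN/3J males, BPH/2J females and BPN/3J females, with 6 mice in each. BPH/2J is the Schlager hypertensive strain and BPN/3J its normotensive control, bred for high and for normal blood pressure. All mice were 12 weeks old, and the labels name no treatment. The strains carry many inherited differences besides blood pressure, and probe sets were not checked for sequence differences between them.

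The respiratory chain sits in the inner membrane of mitochondria. Complex I takes electrons from NADH and complex II takes them from succinate, complex III passes them to cytochrome c and complex IV (cytochrome c oxidase) hands them to oxygen, while ATP synthase uses the proton gradient built by complexes I, III and IV to make ATP. Proximal tubules, which make up much of the kidney cortex, are packed with mitochondria that power the reabsorption of sodium and other solutes. Some subunits of complex IV have a second version, an isoform, found in certain tissues such as heart, skeletal muscle, brown fat or testis. Complex I gave 41 members, of which 34 are subunits and 7 are assembly factors (Ndufaf1 to Ndufaf7), proteins that help to build the complex and then leave it. Complex II gave 4 members, complex III 7 and ATP synthase 17. Complex IV gave 19 members, with 10 subunits of all tissues, 8 isoforms of some tissues and Cox7a2l, a factor of respiratory supercomplexes. Leaving out the isoforms and assembly factors, 72 members are subunits of all tissues.

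Promoters were taken from RefSeq (build GRCm38.p6) as 250 bases before to 50 bases after the start of a gene, using the first start listed. A promoter was matched by symbol for 73 of the 88 members. Nuclear respiratory factor 1 (NRF1) is a transcription factor known for binding promoters of respiratory chain genes, and its motif GCGCANGCG, in which N is any base, was sought on both strands and lay in 21 of the 73 (28.8%), against 6.47% of 27025 genes with a promoter. The motif CCGGAAGT of the ETS family, to which GABP belongs, lay in 5 of 73 members, against 4% of all genes. The YY1 motif AAGATGGCG lay in 6 of 73 members, against 1.49% of all genes, and the ERR motif TCAAGGTCA lay in 2 of 73, against 0.407%. Promoters are shown for the members that differed between the strains in both sexes and for those that passed the Bonferroni threshold in any comparison below, 8 of 9 such genes (Cox6a2 is the ninth). The 150 bases before the start are printed from 5′ to 3′, with NRF1 motifs in capitals.
Sdha (chr13:74350241-74350390, minus strand): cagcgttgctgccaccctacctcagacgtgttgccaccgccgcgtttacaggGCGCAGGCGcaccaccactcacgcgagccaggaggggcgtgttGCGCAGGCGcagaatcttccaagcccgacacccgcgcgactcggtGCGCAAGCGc
Sdhb (chr4:140961121-140961270, plus strand): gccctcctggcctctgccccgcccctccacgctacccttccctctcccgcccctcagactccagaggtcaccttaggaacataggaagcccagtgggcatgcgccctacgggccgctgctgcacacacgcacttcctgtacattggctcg
Atp5e (chr2:174464102-174464251, minus strand): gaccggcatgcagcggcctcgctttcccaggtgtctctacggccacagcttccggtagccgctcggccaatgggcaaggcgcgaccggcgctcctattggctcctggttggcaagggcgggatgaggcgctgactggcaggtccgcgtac
Cox6b1 (chr7:30626115-30626264, minus strand): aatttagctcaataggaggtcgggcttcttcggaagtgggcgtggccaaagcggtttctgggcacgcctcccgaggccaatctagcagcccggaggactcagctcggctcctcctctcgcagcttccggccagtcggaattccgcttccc
Ndufa3 (chr7:3617223-3617372, plus strand): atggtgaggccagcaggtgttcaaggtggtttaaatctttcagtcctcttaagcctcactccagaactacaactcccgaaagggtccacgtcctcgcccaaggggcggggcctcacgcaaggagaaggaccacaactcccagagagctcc
Cox6b2 (chr7:4753095-4753244, minus strand): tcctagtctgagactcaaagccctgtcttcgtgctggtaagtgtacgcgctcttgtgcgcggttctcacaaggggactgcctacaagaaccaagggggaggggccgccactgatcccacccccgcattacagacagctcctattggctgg
Cox7a1 (chr7:30184021-30184170, plus strand): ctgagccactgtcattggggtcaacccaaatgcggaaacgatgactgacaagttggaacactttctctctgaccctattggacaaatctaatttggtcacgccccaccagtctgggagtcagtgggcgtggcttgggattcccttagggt
Ndufaf4 (chr4:24897933-24898082, plus strand): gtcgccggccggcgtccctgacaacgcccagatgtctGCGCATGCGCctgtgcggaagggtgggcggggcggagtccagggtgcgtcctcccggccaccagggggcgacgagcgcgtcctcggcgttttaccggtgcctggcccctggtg
Sdha holds 3 NRF1 motifs in this stretch and Ndufaf4 holds 2 that overlap on opposite strands, while none of the 4 motifs was in the window of the other 6 genes. A match is a description of letters and not of a bound site.

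Kidney markers were present in every array, with a mean over 10 proximal tubule genes of 12.69 to 12.86 on the log2 scale. Medians of the 24 arrays lay between 6.89 and 6.97, and Pearson's r within a group, across probe sets, was 0.981 to 0.997. Markers of neighbouring organs varied within groups. The mean of 12 hepatocyte genes reached 12.28 in BPN/3J females, where arrays 2 and 5 were the highest. The mean of 8 adrenal cortex genes ran from 5.37 to 10.23. It averaged 8.39 in females and 6.6 in males of BPH/2J, and 8.22 and 6.77 in BPN/3J, with overlapping arrays. All 8 genes had a positive difference between females and males in both strains, and 1 was called in BPH/2J and 0 in BPN/3J. For 6 brown fat genes the mean ran from 7.05 to 8.61 across BPH/2J females and from 6.42 to 7.33 across BPN/3J females. Across males of BPH/2J it ran from 6.82 to 7.76, and across those of BPN/3J from 6.94 to 8.04. Of 6 podocyte genes, 4 were higher in BPH/2J than in BPN/3J males and 6 in females, and 6 were higher in females than in males of each strain. Of 7 smooth muscle and pericyte genes, the same comparisons each had 6 higher. Of 9 genes of intercalated cells, acid-base cells of the collecting duct that are rich in mitochondria, 4 were higher in BPH/2J males and 7 in BPH/2J females than in BPN/3J, and 9 in BPH/2J and 8 in BPN/3J were higher in females. Their mean was 10.40 to 10.53 in BPH/2J females, above all other arrays, and at most 10.25 in BPN/3J females, 10.24 in BPH/2J males and 9.93 in BPN/3J males. Of 6 white fat genes, 3 were higher in BPH/2J than in BPN/3J females, 1 was lower in BPH/2J than in BPN/3J males, and females had 5 higher in BPH/2J and 1 lower in BPN/3J. The part of these markers in the results below was not tested except where a value is given. In whole kidney RNA, fewer cells of a type and less RNA per cell cannot be told apart.

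As a whole, the subunits were at much the same level in all groups. The mean over the 72 subunits of all tissues was 11.67 ± 0.018 in BPH/2J males and 11.66 ± 0.013 in BPN/3J males, and 11.69 ± 0.018 in BPH/2J females and 11.65 ± 0.031 in BPN/3J females (SD, n = 6 each). Single arrays lay between 11.60 and 11.71, and the groups overlapped. For males, the same mean over 34 complex I subunits was 11.15 in BPH/2J and 11.17 in BPN/3J, and for females it was 11.16 in BPH/2J and 11.14 in BPN/3J. Over 17 ATP synthase subunits it was 12.12 in BPH/2J and 12.11 in BPN/3J for males, and 12.17 in BPH/2J and 12.11 in BPN/3J for females. Over 7 complex III subunits it was 11.81 in males of both strains, and 11.81 in BPH/2J and 11.76 in BPN/3J females. Over 10 complex IV subunits of all tissues it was 12.37 in BPH/2J and 12.38 in BPN/3J males. In females the complex IV mean was 12.42 in BPH/2J (arrays 12.40 to 12.45) and 12.38 in BPN/3J (12.35 to 12.40). Complex II differed more between the strains. Its mean over 4 genes was 12.08 to 12.16 in BPH/2J males, against 11.96 to 12.00 in BPN/3J males. In females it was 12.05 to 12.15 in BPH/2J, against 11.90 to 12.01 in BPN/3J. The arrays of the strains did not overlap for complex II in either sex. These means are descriptions with no test.

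BPH/2J was set against BPN/3J separately for males and for females with limma. A member counts as called where its p, adjusted by Benjamini and Hochberg across the 28853 probe sets, was under 0.05. In males 8 of 88 members were called (9.09%), 5 higher and 3 lower in BPH/2J, where 15.2% of all probe sets were called (7.48% higher and 7.7% lower). In females 11 members were called (12.5%), 10 higher and 1 lower in BPH/2J, where 14.5% of all probe sets were called (8.01% higher and 6.48% lower). The share of members called was below that of all probe sets in both sexes. It was also below the share among 6996 genes at least as bright as the dimmest subunit of all tissues, 24.1% in males and 21.8% in females. The median difference between BPH/2J and BPN/3J over the 88 members was -0.01 for males and 0.04 for females, and over all probe sets it was 0 and 0.02. Of 72 subunits of all tissues, 6 were called in males and 7 in females. The 95% interval of the difference lay within 1.2-fold in either direction for 69 of these subunits in males and for 67 in females. BPH/2J and BPN/3J arrays did not overlap for 9 members in males, against 9.65% of all probe sets, and for 12 members in females, against 9.34%. At the Bonferroni threshold, which the methods of the study used, 0 members were called in males (2.56% of all probe sets; 21 members had an unadjusted p under 0.05) and 2 in females (2.36% of all probe sets).

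**Figure D1:**
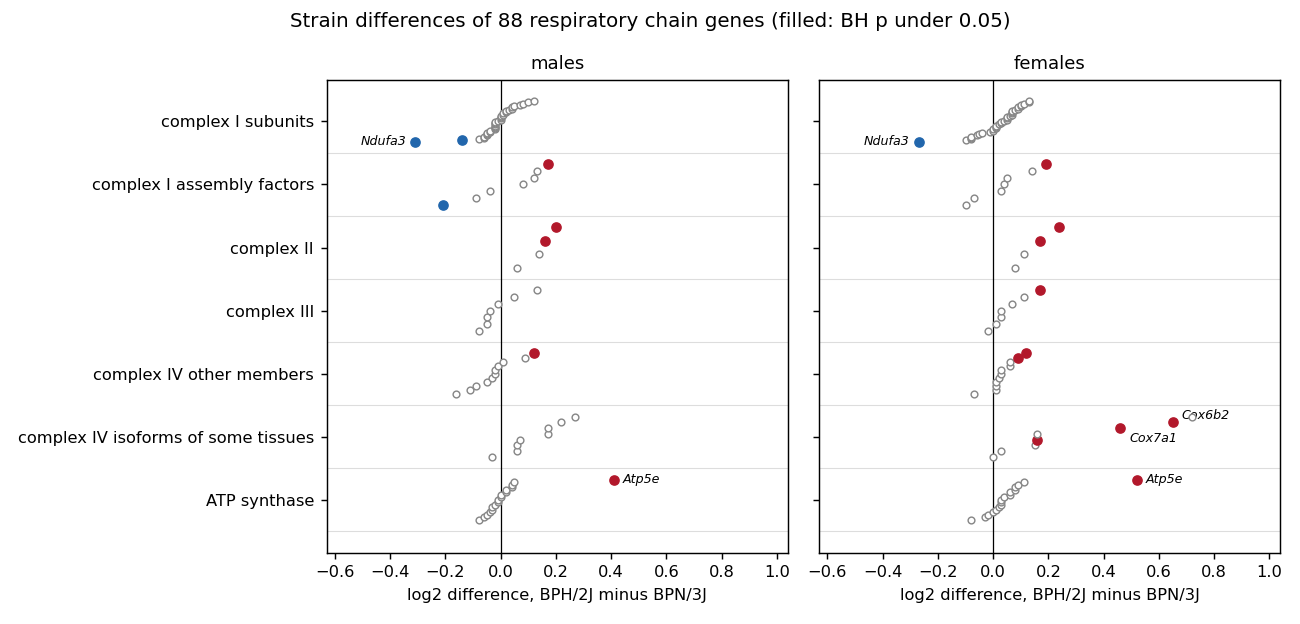
Log2 difference between BPH/2J and BPN/3J kidneys for the 88 members, males in the left panel and females in the right, arranged by complex. Each point is 1 gene, filled red (higher in BPH/2J) or blue (lower) where it was called, and most points lie close to 0 while Atp5e stands at 0.41 in males and 0.52 in females.

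Sdha, Sdhb, Atp5e and Cox6b1 were higher and Ndufa3 was lower in BPH/2J kidneys of both sexes. These are the 5 members called in both comparisons, all in the same direction, where 8.09% of all probe sets were called in both. The male and female comparisons share no arrays. In males the calls of Sdhb and Cox6b1 were lost in a fit with the replicate number as a block (adjusted p = 0.0585 and 0.0855 by limma). The strain-by-sex interaction was called for none of the 5, with adjusted p-values (limma, Benjamini-Hochberg) from 0.695 to 0.996.

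Complex II (succinate dehydrogenase) links the tricarboxylic acid cycle to the chain, and 2 of its 4 genes were called in each sex. Of all probe sets, 15.2% were called in males and 14.5% in females, and of the 6996 bright genes above 24.1% and 21.8%. Sdha, the flavoprotein that oxidises succinate and whose promoter above holds 3 NRF1 motifs, had a lowest, median and highest value of 12.64, 12.65 and 12.70 in BPH/2J males, against 12.38, 12.45 and 12.55 in BPN/3J males. In females it had 12.68, 12.72 and 12.78 in BPH/2J, against 12.39, 12.51 and 12.53 in BPN/3J. Every BPH/2J array lay above every BPN/3J array of its sex. The difference was 0.20 (SE 0.0359, 1.14-fold, adjusted p = 0.00196 by limma) in males and 0.24 (SE 0.0349, 1.18-fold, adjusted p = 0.000411) in females. Sdhb, the iron-sulphur subunit that passes the electrons on, had 12.12, 12.19 and 12.25 in BPH/2J males, against 11.95, 12.03 and 12.07 in BPN/3J males. In females Sdhb had 12.15, 12.28 and 12.33 in BPH/2J, against 12.03, 12.09 and 12.14 in BPN/3J. Here too the strains did not overlap. The difference was 0.16 (SE 0.037) in males and 0.17 (SE 0.0396) in females, with adjusted p = 0.00852 and 0.00931 by limma. The membrane anchors were not called. Sdhc differed by 0.14 in males and 0.11 in females (adjusted p = 0.0546 and 0.191 by limma), and Sdhd by 0.06 and 0.08 (adjusted p = 0.424 and 0.195).

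Of the 17 genes of ATP synthase, the enzyme that makes ATP, 1 was called in each sex, and its difference was the largest among subunits of all tissues. Atp5e encodes the small epsilon subunit in the stalk of the catalytic head. It had 9.91, 10.04 and 10.12 in BPH/2J males, against 9.48, 9.66 and 9.74 in BPN/3J males, and 9.93, 10.15 and 10.32 in BPH/2J females, against 9.50, 9.63 and 9.70 in BPN/3J females. The BPH/2J arrays were all above the BPN/3J arrays in both sexes, and those of BPH/2J females were the most spread. The difference was 0.41 (SE 0.055, 1.33-fold, adjusted p = 0.000147 by limma) in males and 0.52 (SE 0.0713, 1.44-fold, adjusted p = 0.000215) in females. The other 16 genes of the enzyme were not called in either sex.

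**Figure D2:**
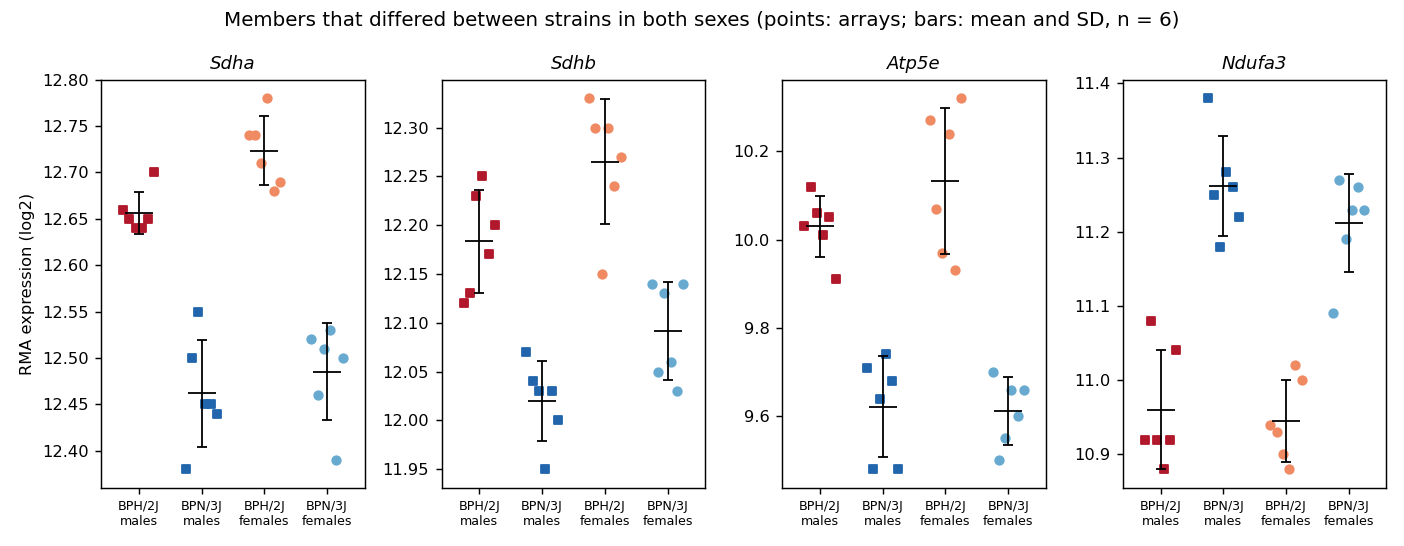
RMA expression (log2) of Sdha, Sdhb, Atp5e and Ndufa3 in the 24 arrays, in the order BPH/2J males, BPN/3J males, BPH/2J females and BPN/3J females, with the mean and SD of 6 arrays as bars. Sdha, Sdhb and Atp5e are higher and Ndufa3 is lower in every BPH/2J array than in the BPN/3J arrays of the same sex, and the vertical axes do not start at 0.

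Complex I is the largest complex, and 1 of its subunits differed between the strains in both sexes. Ndufa3, an accessory subunit of the membrane arm, had 10.88, 10.92 and 11.08 in BPH/2J males, against 11.18, 11.26 and 11.38 in BPN/3J males. In females it had 10.88, 10.93 and 11.02 in BPH/2J, against 11.09, 11.23 and 11.27 in BPN/3J. All BPH/2J arrays were below all BPN/3J arrays of their sex. The difference was -0.31 (SE 0.0469, adjusted p = 0.000471 by limma) in males and -0.27 (SE 0.0407, adjusted p = 0.00049) in females. Ndufb8, also in the membrane arm, was lower by 0.14 in BPH/2J males (difference -0.14, SE 0.0447, adjusted p = 0.0491), with overlapping arrays, and differed by -0.08 in females (adjusted p = 0.278). The call of Ndufb8 in males was lost in 10 of 12 fits that left out 1 array, with differences of -0.17 to -0.12, and held without BPH/2J male array 2 or BPN/3J male array 2. The other 32 complex I subunits were not called in either sex.

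Among the 7 assembly factors of complex I, 2 were called in males and 1 in females, where 15.2% and 14.5% of all probe sets were called. Ndufaf1, which acts in building the membrane arm, was lower in BPH/2J males, with 9.71, 9.77 and 9.84 against 9.85, 9.99 and 10.09 in BPN/3J males. Its strains did not overlap in males (difference -0.21, SE 0.0463, adjusted p = 0.00775 by limma), and it differed by -0.10 in females (adjusted p = 0.201). Ndufaf7, a methyltransferase of complex I assembly, was higher in BPH/2J males, by 0.17 (SE 0.0406, adjusted p = 0.0112), and differed by 0.14 in females (adjusted p = 0.114). Ndufaf2, a chaperone of a late step, was higher in BPH/2J females, with 8.05, 8.15 and 8.21 against 7.90, 7.94 and 7.99 in BPN/3J females. The difference was 0.19 (SE 0.0349, adjusted p = 0.00182 by limma), against 0.13 in males (adjusted p = 0.0965). The interaction was not called for Ndufaf1, Ndufaf2 or Ndufaf7, with adjusted p-values of 0.525, 0.751 and 0.895 by limma, so a difference between the sexes was not shown.

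In complexes III and IV the called subunits of all tissues were higher in BPH/2J kidneys, by small amounts. Cox6b1, a subunit of complex IV on the side that faces cytochrome c, had 12.61, 12.64 and 12.69 in BPH/2J males, against 12.48, 12.52 and 12.57 in BPN/3J males. In females it had 12.64, 12.72 and 12.73 in BPH/2J, against 12.53, 12.57 and 12.64 in BPN/3J. The difference was 0.12 in each sex (SE 0.0323 in males and 0.0339 in females, adjusted p = 0.019 and 0.0256 by limma), and 1 BPN/3J female array reached the lowest BPH/2J female array. Cox6c, another accessory subunit of complex IV, differed by 0.09 in each sex and was called in females alone (adjusted p = 0.0464 by limma), against 0.074 in males, where the arrays of the strains did not overlap either. A second Cox6c probe set differed by 0.05 in males and 0.06 in females and was not called (adjusted p = 0.489 and 0.297). Uqcrb, an accessory subunit of complex III, had 13.19, 13.24 and 13.32 in BPH/2J females, against 12.96, 13.09 and 13.14 in BPN/3J females. Its difference was 0.17 in females (SE 0.0411, adjusted p = 0.0114) and 0.13 in males (adjusted p = 0.118). Its other probe sets were called in females too, with differences of 0.18 and 0.17 (adjusted p = 0.016 and 0.0353). The call of Uqcrb was lost with the brown fat mean as a covariate (difference 0.11, adjusted p = 0.314) and with the proximal tubule mean as a covariate. It was also lost without BPH/2J female arrays 1, 2 and 3, those with the highest brown fat and adrenal cortex means of their group (difference 0.16, adjusted p = 0.106). BPH/2J females had the higher brown fat mean, as given above.

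Among isoforms of complex IV that belong to some tissues, Cox6b2 and Cox7a1 had the smallest p-values of all members in females. In females 3 of these 8 isoforms were called (Cox6b2, Cox7a1 and Cox4i2), all higher in BPH/2J, where 14.5% of all probe sets were called. In males 0 were called by limma, where 3 had an unadjusted p under 0.05 and 15.2% of all probe sets were called. The median difference over the 8 was 0.16 in females and 0.12 in males. Cox6b2, known as the testis isoform of Cox6b1, had 7.83, 7.95 and 8.07 in BPH/2J females, against 7.10, 7.33 and 7.43 in BPN/3J females. In males it had 7.10, 7.34 and 7.46 in BPH/2J, against 7.09, 7.14 and 7.21 in BPN/3J. BPH/2J females stood above every array of the other groups, which overlapped one another. The difference was 0.65 in females (SE 0.0581, 1.57-fold, adjusted p = 5.13e-06 by limma, Bonferroni-adjusted p = 0.00174) and 0.17 in males (SE 0.0571, adjusted p = 0.0619). The strain-by-sex interaction was 0.48 (SE 0.0815, adjusted p = 0.00124 by limma), and Cox6b2 was the 1 member of 88 called for it, where 1.76% of all probe sets were called (0.918% positive and 0.842% negative, and 0.36% at the Bonferroni threshold, which 0 members passed).

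Cox7a1, the isoform of heart and skeletal muscle that brown fat also uses, had 10.36, 10.47 and 10.56 in BPH/2J females, against 9.92, 9.99 and 10.11 in BPN/3J females. In males it had 9.73, 9.87 and 10.10 in BPH/2J, against 9.54, 9.76 and 9.83 in BPN/3J. The strains did not overlap in females and overlapped in males. The difference was 0.46 in females (SE 0.0455, 1.38-fold, adjusted p = 1.18e-05 by limma, Bonferroni-adjusted p = 0.00494) and 0.17 in males (SE 0.0701, adjusted p = 0.14), with an interaction of 0.30 (SE 0.0842, adjusted p = 0.0779). Cox8b, an isoform of muscle and brown fat in rodents, had 9.74, 10.41 and 10.95 in BPH/2J females, against 9.31, 9.70 and 10.08 in BPN/3J females. Its groups overlapped, and the difference of 0.72 in females was not called (SE 0.232, 95% interval 0.22 to 1.23, adjusted p = 0.0558 by limma). Cox4i2, an isoform best known from lung, was higher by 0.16 in BPH/2J females (SE 0.0479, adjusted p = 0.0456), a call lost in 8 of 12 fits without 1 array (differences 0.13 to 0.17) that held without BPH/2J female array 1, 5 or 6 or BPN/3J female array 6. Cox6a2, the heart and muscle isoform of Cox6a1, differed by 0.27 in males and 0.16 in females (adjusted p = 0.149 and 0.315). The remaining isoforms, Cox7b2, Cox8c and the hypoxia-responsive Ndufa4l2, differed by -0.03 to 0.07 in males and by 0.00 to 0.15 in females and were not called.

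**Figure D3:**
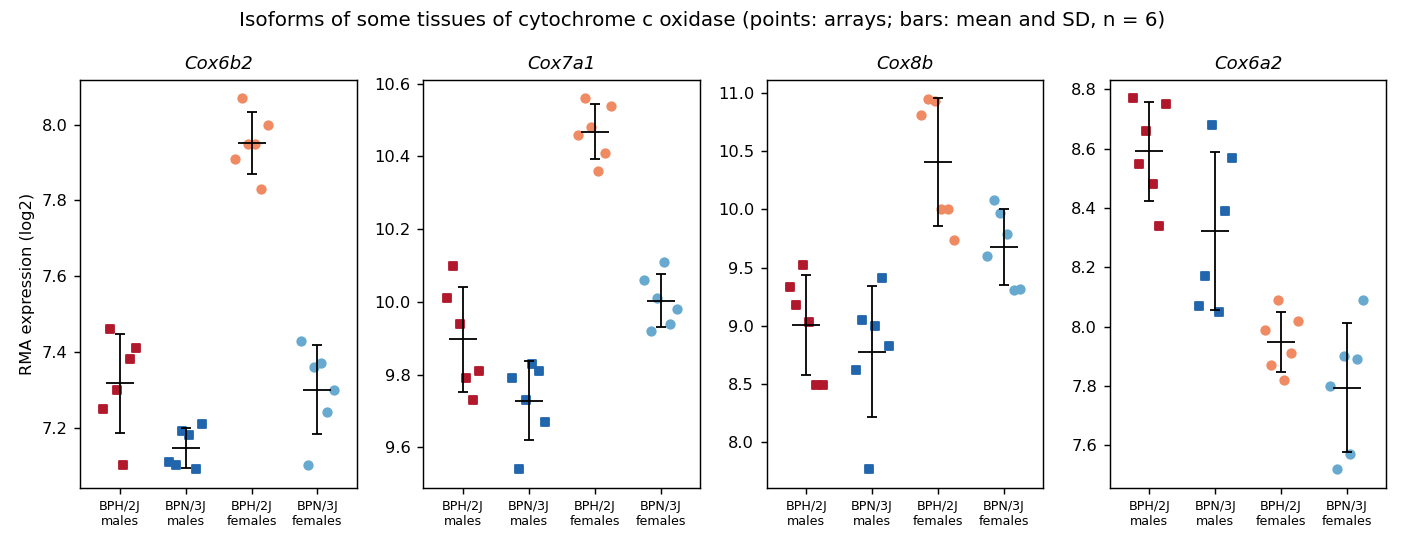
RMA expression (log2) of Cox6b2, Cox7a1, Cox8b and Cox6a2 in the 24 arrays, in the order BPH/2J males, BPN/3J males, BPH/2J females and BPN/3J females, with the mean and SD of 6 arrays as bars. Cox6b2 and Cox7a1 are highest in the 6 BPH/2J female arrays, Cox8b is 10.81 to 10.95 in BPH/2J female arrays 1, 2 and 3 and lower in the other arrays, Cox6a2 is higher in males, and the vertical axes do not start at 0.

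Brown fat markers were highest in BPH/2J females, as Cox6b2, Cox7a1 and Cox8b were. The brown fat mean averaged 8.01 in BPH/2J females and 6.91 in BPN/3J females, and 7.24 in BPH/2J males and 7.61 in BPN/3J males. Of 6 measured brown fat genes, 3 were higher in BPH/2J than in BPN/3J females and 0 were lower, among them Ucp1, the uncoupling protein of brown fat, by 3.50 (SE 0.435, adjusted p = 9.64e-05 by limma). The brown fat mean was 8.53 to 8.61 in BPH/2J female arrays 1, 2 and 3 and 7.05 to 7.86 in arrays 4, 5 and 6. Their adrenal cortex mean was 9.85, 9.71 and 9.73 in arrays 1, 2 and 3, against 9.6, 6.07 and 5.39 in arrays 4, 5 and 6. Array 3 also had the highest hepatocyte mean of the group (10.14). Leaving out arrays 1, 2 and 3 therefore does not bear on brown fat alone. Without arrays 1, 2 and 3, the difference between BPH/2J and BPN/3J females was 0.63 for Cox6b2 (SE 0.0753, adjusted p = 0.000629) and 0.43 for Cox7a1 (SE 0.0586, adjusted p = 0.00129). With the brown fat mean as a covariate it was 0.65 for Cox6b2 (adjusted p = 0.000939) and 0.46 for Cox7a1 (adjusted p = 0.00186). The call of Cox4i2 was lost in both, with a difference of 0.16 without these arrays (SE 0.0614, adjusted p = 0.162) and 0.13 with the covariate (SE 0.0741, adjusted p = 0.37). Across females the brown fat mean ran from 7.05 to 8.61 in BPH/2J and from 6.42 to 7.33 in BPN/3J. The covariate fit therefore cannot fully separate it from strain. BPH/2J females also stood above all other groups in the means of the intercalated cell, podocyte, and smooth muscle and pericyte genes. The podocyte mean was 8.64 to 8.71 in BPH/2J females and at most 8.5 in the other groups. For smooth muscle and pericytes it was 9.38 to 9.51, and at most 9.26 in the other groups. The part of these markers in the isoform differences was not tested. The interaction of Cox6b2 was 0.45 without BPH/2J female arrays 1, 2 and 3 and 0.49 with the brown fat covariate (adjusted p = 0.0146 and 0.0314 by limma). Skeletal muscle markers, a mean over 9 genes, lay between 6.17 and 6.41 in all 24 arrays, and 1 of the 9 was called in females, lower in BPH/2J.

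**Figure D4:**
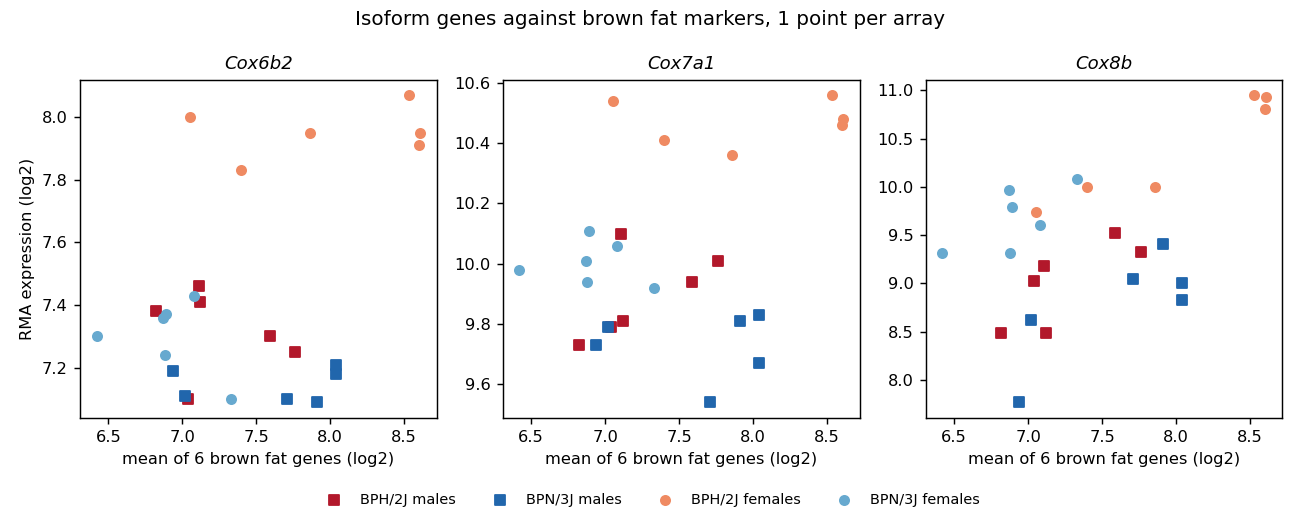
RMA expression (log2) of Cox6b2, Cox7a1 and Cox8b against the mean of 6 brown fat genes (log2), 1 point per array and 1 colour per group. BPH/2J females, with brown fat means of 7.05 to 8.61, are the highest group for Cox6b2 and Cox7a1. No array of another group has a brown fat mean above 8.04, so the groups cannot be compared beyond it. Cox8b is highest in the 3 arrays with a brown fat mean of 8.53 to 8.61.

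Females were then compared with males within each strain. In BPH/2J 27 of 88 members were called (30.7%), 17 higher and 10 lower in females, where 28.9% of all probe sets were called (15.6% higher and 13.4% lower). In BPN/3J 26 members were called (29.5%), 10 higher and 16 lower in females, where 29.2% of all probe sets were called (14.4% higher and 14.8% lower). The shares are close to those of all probe sets, and below the 53% in BPH/2J and 52.8% in BPN/3J among the 6996 genes at least as bright as the dimmest subunit. Of the 72 subunits of all tissues, 17 were called in BPH/2J and 16 in BPN/3J, and the 95% interval lay within 1.2-fold for 69 of them in BPH/2J and 65 in BPN/3J. At the Bonferroni threshold 3 members were called in BPH/2J (4.72% of all probe sets) and 1 in BPN/3J (4.74%). Female and male arrays did not overlap for 21 members in BPH/2J, against 18.2% of all probe sets, and for 13 in BPN/3J, against 17.6%. The same direction was called in both strains for 19 members, 9 higher and 10 lower in females, where 19.6% of all probe sets were so called. The balance of directions depended on the scaling. With arrays shifted to a common median it was 9 higher and 17 lower in BPH/2J and 2 higher and 18 lower in BPN/3J, and with quantile normalisation it was 26 higher and 10 lower in BPH/2J and 13 higher and 12 lower in BPN/3J.

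**Figure D5:**
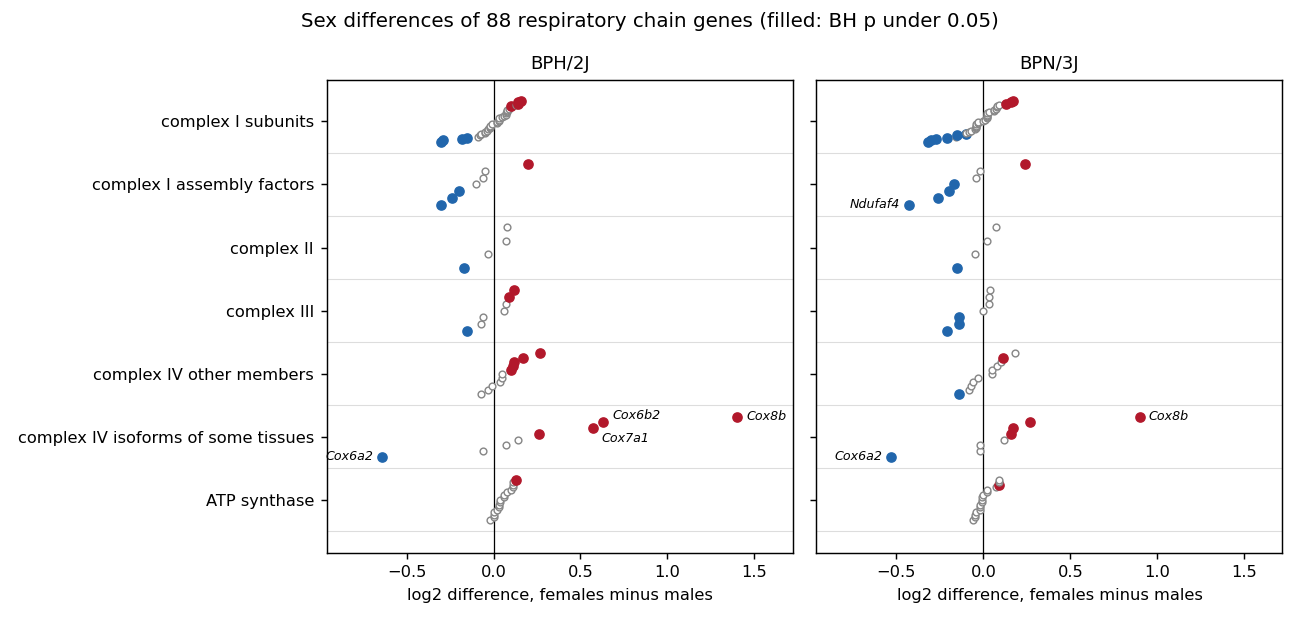
Log2 difference between females and males for the 88 members, BPH/2J in the left panel and BPN/3J in the right, arranged by complex. Each point is 1 gene, filled red (higher in females) or blue (lower) where it was called, and the isoforms of some tissues reach farthest, from -0.64 for Cox6a2 to 1.40 for Cox8b in BPH/2J.

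Cox8b and Cox6a2 had the largest sex differences of the 88 members in each strain. In each strain 5 of the 8 isoforms were called, 4 higher and 1 lower in females, where 28.9% of all probe sets were called in BPH/2J and 29.2% in BPN/3J. Cox8b had 9.74, 10.41 and 10.95 in BPH/2J females, against 8.49, 9.10 and 9.52 in BPH/2J males, and 9.31, 9.70 and 10.08 in BPN/3J females, against 7.77, 8.91 and 9.41 in BPN/3J males. All BPH/2J females were above all BPH/2J males, and the sexes overlapped at the margin in BPN/3J. The difference was 1.40 in BPH/2J (SE 0.252, 2.64-fold, adjusted p = 0.000903 by limma) and 0.90 in BPN/3J (SE 0.235, 1.86-fold, adjusted p = 0.0111). The brown fat mean was higher in females of BPH/2J and lower in females of BPN/3J, where Ucp1 differed between females and males by 2.13 and by -1.45. Without BPH/2J female arrays 1, 2 and 3 the difference of Cox8b in BPH/2J was 0.91 (adjusted p = 0.016), and with the brown fat mean as a covariate it was 0.78 in BPH/2J and 1.48 in BPN/3J (adjusted p = 0.00311 and 0.000623).

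Cox7a1 was higher in females by 0.57 in BPH/2J (SE 0.0638, adjusted p = 1.79e-05 by limma, Bonferroni-adjusted p = 0.0202) and by 0.27 in BPN/3J (SE 0.0542, adjusted p = 0.00182), with no overlap between the sexes in either strain. Cox6b2 was higher in females by 0.63 in BPH/2J (SE 0.0609, adjusted p = 4.57e-06, Bonferroni-adjusted p = 0.00348) and by 0.16 in BPN/3J (SE 0.054, adjusted p = 0.0459). The BPN/3J call of Cox6b2 was lost in 11 of 12 fits that left out 1 array (differences 0.13 to 0.20), held without BPN/3J female array 2, and was lost with the brown fat covariate (0.13, adjusted p = 0.264). The BPH/2J values of Cox6b2 and Cox7a1 rest on the same female arrays as their strain differences. Cox4i2 was higher in females by 0.26 in BPH/2J (SE 0.0651, adjusted p = 0.0088) and by 0.17 in BPN/3J (SE 0.0479, adjusted p = 0.0196), calls that were lost with the brown fat covariate, where the difference was 0.22 in BPH/2J (SE 0.0836, adjusted p = 0.0783) and 0.12 in BPN/3J (SE 0.0652, adjusted p = 0.239). Without BPH/2J female arrays 1, 2 and 3 the difference of Cox4i2 in BPH/2J was 0.26 (SE 0.0869, adjusted p = 0.057). The BPH/2J call of Cox4i2 was also lost with the hepatocyte and adrenal cortex covariates and with the proximal tubule covariate. Its BPN/3J call was also lost under both rescalings and without BPN/3J female arrays 2 and 5.

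Cox6a2 went the other way. It had 7.82, 7.95 and 8.09 in BPH/2J females, against 8.34, 8.60 and 8.77 in BPH/2J males, and 7.52, 7.85 and 8.09 in BPN/3J females, against 8.05, 8.28 and 8.68 in BPN/3J males. The sexes did not overlap in BPH/2J and touched in BPN/3J. The difference was -0.64 in BPH/2J (SE 0.0745, 1.56-fold, adjusted p = 2.51e-05 by limma, Bonferroni-adjusted p = 0.0308) and -0.53 in BPN/3J (SE 0.127, adjusted p = 0.00668). Cox7a2l, the factor of supercomplexes, was higher in females by 0.27 in BPH/2J (SE 0.0596, adjusted p = 0.00405) and differed by 0.18 in BPN/3J (adjusted p = 0.0999). Its call in BPH/2J was lost without female arrays 1, 2 and 3 (0.18, adjusted p = 0.0815) and with the hepatocyte and adrenal cortex covariates.

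In complex I, Ndufv1 and Ndufv3, of the module that takes up electrons from NADH, were lower in females of both strains, while Ndufv2 of the same module was not called (differences 0.08 in BPH/2J and 0.06 in BPN/3J). Ndufv1, the flavin subunit that oxidises NADH, had 11.82, 11.85 and 11.91 in BPH/2J females, against 12.00, 12.03 and 12.10 in BPH/2J males, and 11.72, 11.83 and 11.84 in BPN/3J females, against 12.03, 12.06 and 12.12 in BPN/3J males. The sexes did not overlap in either strain. The difference was -0.18 in BPH/2J (SE 0.0324, adjusted p = 0.000955 by limma) and -0.27 in BPN/3J (SE 0.0342, adjusted p = 6.23e-05). Ndufv3, an accessory subunit of the same module, was lower by 0.30 in females of both strains (difference -0.30 in each, SE 0.0542 in BPH/2J and 0.0406 in BPN/3J, adjusted p = 9e-04 and 8.27e-05), again with no overlap. Ndufa1, an accessory subunit encoded on the X chromosome, had 9.46, 9.48 and 9.55 in BPH/2J females, against 9.73, 9.76 and 9.89 in BPH/2J males, and 9.38, 9.44 and 9.58 in BPN/3J females, against 9.70, 9.80 and 9.84 in BPN/3J males. All females were below all males of their strain, with a difference of -0.29 in BPH/2J (SE 0.0363, adjusted p = 5.04e-05) and -0.32 in BPN/3J (SE 0.0447, adjusted p = 0.000123). Ndufb11, another X-linked accessory subunit, was higher in females by 0.10 in BPH/2J and by 0.13 in BPN/3J (adjusted p = 0.0485 and 0.013). On its second probe set the differences were 0.06 and 0.10 (adjusted p = 0.342 and 0.0377), so that the BPH/2J call was lost. The accessory subunits Ndufc2 and Ndufa7 were higher in females, Ndufc2 by 0.14 in BPH/2J and 0.17 in BPN/3J and Ndufa7 by 0.14 and 0.16, with adjusted p-values of 0.00487 and 0.01 for Ndufc2 and 0.0256 and 0.0258 for Ndufa7. The call of Ndufa7 in BPN/3J was lost in 5 of 12 fits without 1 array (females 4, 5 and 6, males 2 and 6), with differences of 0.15 to 0.20 over the 12. The BPN/3J calls of both were also lost with arrays shifted to a common median and with the brown fat covariate (Ndufc2 0.16, adjusted p = 0.0871, and Ndufa7 0.10, adjusted p = 0.326).

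Of the 7 assembly factors of complex I, 4 were called in BPH/2J and 5 in BPN/3J, and all of those but Ndufaf5 were lower in females. Of all probe sets, 28.9% were called in BPH/2J and 29.2% in BPN/3J. Among the 6996 genes at least as bright as the dimmest subunit, 53% and 52.8% were called, with more lower than higher in females. Ndufaf4, which acts early in assembly and whose promoter above holds NRF1 motifs, had 9.40, 9.55 and 9.62 in BPH/2J females, against 9.73, 9.79 and 10.03 in BPH/2J males, and 9.40, 9.50 and 9.62 in BPN/3J females, against 9.85, 9.95 and 10 in BPN/3J males. Females and males did not overlap in either strain. The difference was -0.30 in BPH/2J (SE 0.0588, adjusted p = 0.00162 by limma) and -0.43 in BPN/3J (SE 0.0434, 1.34-fold, adjusted p = 8.12e-06, Bonferroni-adjusted p = 0.00741), the 1 member past the Bonferroni threshold there. Ndufaf2 was lower in females by 0.20 in BPH/2J and 0.26 in BPN/3J (differences -0.20 and -0.26, adjusted p = 0.00745 and 0.000147), and Ndufaf6 by 0.24 and 0.17 (differences -0.24 and -0.17, adjusted p = 0.00426 and 0.0445). The call of Ndufaf2 in BPH/2J was lost with the hepatocyte and adrenal cortex covariates (adjusted p = 0.104 by limma). Ndufaf5, a hydroxylase acting on a complex I subunit, was higher in females by 0.20 and 0.24 (adjusted p = 0.00935 and 0.0234), a call lost in BPN/3J without female array 5 or 6, with differences of 0.19 to 0.28 over 12 fits without 1 array. The call of Ndufaf5 in BPN/3J was also lost under both rescalings, without female arrays 2 and 5 and with the brown fat covariate (0.16, adjusted p = 0.289). In BPH/2J it was lost without female arrays 1, 2 and 3 (0.21, adjusted p = 0.0526) and with the hepatocyte and adrenal cortex covariates.

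In the other complexes, Sdhc was lower in females by 0.17 in BPH/2J and 0.15 in BPN/3J (differences -0.17 and -0.15, adjusted p = 0.0122 and 0.0362 by limma), while Sdha and Sdhb were not called in either strain (differences 0.02 to 0.08). Uqcrfs1, the Rieske iron-sulphur protein of complex III, was lower in females by 0.15 and 0.21 (differences -0.15 and -0.21, adjusted p = 0.0174 and 0.0153). The accessory subunits of complex III had 2 higher in BPH/2J females, Uqcr11 by 0.12 and Uqcrh by 0.09 (adjusted p = 0.0321 and 0.0424), and 2 lower in BPN/3J females, Uqcrc1 and Uqcr10, each with a difference of -0.14 (adjusted p = 0.0066 and 0.0431). Of the 10 complex IV subunits of all tissues, 4 were higher and 0 lower in BPH/2J females (40%). In this comparison 28.9% of all probe sets and 53% of the 6996 genes at least as bright as the dimmest subunit were called. The 4 were Cox4i1 by 0.17, Cox5b by 0.12, Cox6c by 0.11 and Cox7b by 0.10 (adjusted p from 0.00414 to 0.0265). As given above, the balance of directions over the 88 members depended on the scaling. In BPN/3J, Cox6c was higher in females by 0.11 (adjusted p = 0.0223) and Ndufa4 was lower (difference -0.14, adjusted p = 0.021). Uqcr11, Uqcrh, Uqcr10 and Cox7b have a second, dimmer probe set on which these calls were not made (adjusted p = 0.582, 0.908, 0.636 and 0.053). On the second Cox6c probe set the BPH/2J call held (0.11, adjusted p = 0.0141) and the BPN/3J call was lost (0.1, adjusted p = 0.0727). Of the 17 ATP synthase genes, 1 was called in each strain, and Atp5e was not, with a difference of 0.10 in BPH/2J and -0.01 in BPN/3J (adjusted p = 0.328 and 0.928).

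Other genes of the same organelle were read from lists, whose counts stand beside 15.2% of all probe sets called in males and 14.5% in females, and beside 24.1% and 21.8% of the 6996 genes at least as bright as the dimmest subunit. Of 30 assembly factors outside the symbol rule, 3 were higher and 4 lower in BPH/2J in each sex (23.3%), a share near that of the bright genes. Lyrm7, which helps to insert the iron-sulphur protein of complex III, was lower by 0.81 in males and 0.82 in females (differences -0.81 and -0.82, adjusted p = 6.52e-06 and 4.56e-07 by limma), and Coa3, an assembly factor of complex IV, by 0.33 and 0.44 (differences -0.33 and -0.44, adjusted p = 1.49e-05 and 1.02e-06). Sdhaf1, the assembly factor of Sdhb, was lower in BPH/2J males (-0.42, adjusted p = 2.22e-05) and differed by -0.15 in females (adjusted p = 0.0544), with an interaction of 0.27 (adjusted p = 0.0267). Among 12 other chain members, the calls went both ways. For males, 1 called gene lay above its BPN/3J level in BPH/2J and 1 lay below. For females, 2 called genes lay above it and 1 below. The gene below was Nnt in both sexes, the proton-driven transhydrogenase that makes NADPH. Its differences were -0.35 in males and -0.33 in females (adjusted p = 1.21e-05 and 4.75e-05 by limma). Of 15 genes of the tricarboxylic acid cycle, 2 were higher in BPH/2J males and 4 in females, and 0 were lower in either sex. They included Sucla2 (0.24 and 0.33, adjusted p = 0.00112 and 0.000397) and, in females, Pdhb (0.40, adjusted p = 6.32e-05). Of 74 mitochondrial ribosomal proteins, the male comparison called 9 higher and 4 lower in BPH/2J and the female comparison 11 higher and 5 lower, led by Mrpl12 (-0.77 and -0.69), Mrpl20 (0.48 and 0.69) and Mrpl15 (0.49 and 0.48). Of 24 import and carrier genes, 0 were higher and 2 lower in males and 0 higher and 1 lower in females, with Mfn2, a fusion protein of the outer membrane, at -0.26 and -0.27 (adjusted p = 0.000216 and 0.000225).

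In the sex comparisons more genes of these lists were lower than higher in females. This was so too of the 6996 genes at least as bright as the dimmest subunit, with 1635 higher and 2070 lower in BPH/2J females and 1613 higher and 2084 lower in BPN/3J females (53% and 52.8% called). Of all probe sets, 15.6% were higher and 13.4% lower in BPH/2J, and 14.4% were higher and 14.8% lower in BPN/3J. Of the 74 mitochondrial ribosomal proteins, BPH/2J had 3 higher and 32 lower in females, and BPN/3J had 2 higher and 35 lower. Of the 30 assembly factors, 0 were higher and 16 lower in BPH/2J and 1 higher and 15 lower in BPN/3J, where Sdhaf1 differed by -0.36 and -0.62 and Cox15, which makes the haem of complex IV, by -0.37 and -0.38. Of the 24 import and carrier genes, 1 was higher in each strain, and 10 were lower in BPH/2J and 11 in BPN/3J. Among the 15 tricarboxylic acid cycle genes 4 were lower in BPH/2J and 8 in BPN/3J, and 0 were higher. With arrays shifted to a common median or quantile normalised, more genes were lower than higher in each of these 4 lists in both strains, and the ribosomal proteins had 31 to 41 lower and 1 to 3 higher. The count of lower tricarboxylic acid cycle genes moved most, to 7 with the common median and 1 with quantile normalisation in BPH/2J, and to 10 and 4 in BPN/3J. The median difference of the ribosomal proteins was -0.11 in both strains, while that of the 88 chain members was 0.04 and -0.01 and that of all probe sets 0 and -0.02. Among 16 genes of mitochondrial biogenesis, females had 2 higher and 5 lower in BPH/2J and 3 higher and 6 lower in BPN/3J. Ppargc1a, a coactivator that drives biogenesis, was higher in females by 0.28 and 0.32 (adjusted p = 0.000546 and 0.000166). Tfam, the transcription factor of mitochondrial DNA, differed by -0.26 and -0.23 (adjusted p = 0.000574 and 0.00408). Between the strains 0 of the 16 were higher in BPH/2J, and 1 was lower in males and 2 in females. Gabpb1, a subunit of the ETS factor GABP, was lower in BPH/2J than in BPN/3J females by 0.55 (difference -0.55, adjusted p = 2.83e-05) and differed by 0.10 between the strains in males (adjusted p = 0.203), with an interaction of -0.66 (SE 0.0763, adjusted p = 8.88e-06 by limma).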

How the data were processed

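Kidney RNA of 24 mice (12 weeks old, 6 per strain and sex, 1 array per mouse) was profiled on Affymetrix Mouse Gene arrays. The log2 values were deposited by the authors after RMA (background correction, quantile normalisation and probe summary), with no version given in the sources used here, and were used as deposited, from 2.12 to 14.55. Of 28853 probe sets, 73.3% had exactly 1 gene symbol in the platform annotation. Member groups and gene lists were chosen with earlier results of these data known.

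Each of 5 comparisons was fitted to all probe sets with limma 3.58.1 in R 4.3.3 (lmFit, eBayes), 2 groups at a time for strain and sex and all 4 groups for the strain-by-sex interaction, the strain difference in females minus that in males. The call threshold was 0.05 for p adjusted by Benjamini and Hochberg across the whole array, and the Bonferroni threshold of the study's methods is given beside them. Differences are BPH/2J minus BPN/3J, or females minus males. The test was checked on simulated data. Sequences were searched with Python 3.11.15 and plots drawn with matplotlib 3.10.9.

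Members named are those past Bonferroni in a comparison, up to 6 of the largest called differences per direction and comparison, the isoforms of some tissues, members at the ends of the level range of their complex where they bear on a comparison (Cox6c, Sdhd, Uqcrfs1), and for each list up to 3 genes with the largest called differences. Sdhc, Ndufv2, Ndufb11 and the further complex III and IV subunits of the sex comparisons (Uqcr11, Uqcrh, Uqcrc1, Uqcr10, Cox4i1, Cox5b, Cox7b, Ndufa4) were added after their values were seen. Alternatives covered the adjustment, the t-test of the methods, dim probe sets (the lowest 40% by mean), probe set choice, scaling, variance model, replicate number, marker means as covariates, and leaving out arrays. The number of arrays limits the precision, and p-values measure the spread between mice of a group. Genes whose probe sets carried several symbols and the mitochondrially encoded subunits were not analysed here.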

Additional observations from a re-analysis of the deposited data

Results flagged for a closer look

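The strain difference of Cox6b2 differed between females and males, with an interaction of 0.48 on the log2 scale (females minus males, SE 0.0815, adjusted p = 0.00124 by limma), as described above. For 24 of the named members, 96 groups of 6 arrays were searched for 1 array far from the others by Dixon's test. Chance flags about 1 of 20 groups by this test, and 4 were found. Ndufaf7 was 8.75 in BPH/2J male array 2, where the next highest was 8.60. Sdha was 12.70 in BPH/2J male array 6, where the next highest was 12.66. Ndufb8 was 11.42 in BPH/2J female array 3, where the next lowest was 11.53. Ndufv1 was 11.72 in BPN/3J female array 5, one of the 2 arrays of its group with the highest hepatocyte mean, where the next lowest was 11.81.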

How the results depend on the processing

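For the strain comparison in males, 8 members were called, against 0 by Bonferroni, 13 without dim probe sets, 15 in a fit to all 24 arrays, 14 with a trended and robust variance and 5 with the replicate block. In females 11 were called, against 2 by Bonferroni, 17 with the trended and robust variance, 7 without BPN/3J female arrays 2 and 5, 6 with the brown fat mean as a covariate and 7 with the proximal tubule mean. The count was 7 without BPH/2J female arrays 1, 2 and 3, which was added after seeing the data. For the interaction 1 was called, against 0 by Bonferroni and 2 either without dim probe sets or with the trended and robust variance. For sex in BPH/2J 27 were called, against 3 by Bonferroni and 12 with the hepatocyte and adrenal cortex means as covariates. For sex in BPN/3J 26 were called, against 1 by Bonferroni, 14 without BPN/3J female arrays 2 and 5 and 12 with the brown fat covariate. Leaving out 1 array gave 7 to 9 in males, 8 to 11 in females, 1 to 2 for the interaction, 21 to 27 for sex in BPH/2J and 19 to 23 in BPN/3J. Causes of these shifts were not tested. With arrays shifted to a common median, the strain comparison in males had 7 higher and 2 lower, against 5 and 3 as deposited.

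For named members, 42 results were recomputed under 1061 alternatives, of which 975 kept the direction and the side of the threshold, 86 lost the call and 0 turned the direction. They cover members past Bonferroni, up to 6 of the largest called differences per direction and comparison, and called isoforms of some tissues. Other results above were not among the 42, such as Sdhb and Cox6b1 in the female strain comparison, and Cox6c, Sdhc, Uqcrfs1 and Uqcrh in any comparison. Deviations of arrays with the same replicate number correlated with mixed signs (r -0.567 to 0.444). Such values cannot settle whether the numbers pair the mice, and the fits above treat them as unpaired. With the replicate number as a block, 5, 9, 1, 20 and 19 members were called in the 5 comparisons, in the order above. The number of arrays per group sets the smallest difference that can be called, and values of Cox7b2, with a mean of 3.41, rest on signal near the lower end of the array's range.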
